A study of Mus musculus with 2 samples.

Results

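The Hox and Evx genes are the homeobox genes of the 4 Hox clusters together with Evx1 and Evx2. They were taken as every probe that is not a control spot and whose gene name in the array files is Hoxa, Hoxb, Hoxc or Hoxd with a number, or Evx1 or Evx2. This gave 41 genes on 46 probes, out of 31693 genes on 39429 probes. Of the 41 genes, 36 were bright enough to be tested, out of 21978 genes tested in all.

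RNA was taken from ureters dissected from NMRI mouse embryos at E14.5, and hybridised to 2-colour Agilent arrays. The Bmp4cKO embryos had the genotype Tbx18(cre/+);Bmp4(fl/fl), in which cre is expressed from the Tbx18 locus of the ureteric mesenchyme and is meant to delete Bmp4 from both floxed alleles there. The controls had the genotype Tbx18(+/+);Bmp4(fl/?), with no cre and both Tbx18 copies, so cre, the Tbx18 copy number and the Bmp4 deletion differ together between the groups. The 2 arrays, replicate 1 labelled female and replicate 2 labelled male, each held 1 RNA labelled Bmp4cKO and 1 labelled control, with the dyes exchanged between arrays. The sources used here do not say whether an RNA came from 1 embryo or from pooled embryos. The p-values rest on the spread between these 2 arrays alone, for each gene moderated by the spread over all genes tested. Array, labelled sex and dye orientation coincide and cannot be told apart, so members described singly are given on each array, and other genes mostly as the mean of both.

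The labels were first set against the targeted gene. Bmp4, which encodes a secreted bone morphogenetic protein, had an intensity of 75598 and 61938 in the RNA labelled Bmp4cKO, against 9191 and 4719 in the RNA labelled control, on replicates 1 and 2. This is opposite to what the labels say, although the sources used here do not say whether this probe lies in the deleted part. The other Bmp4 probe was not above background in any channel. Tbx18, of which the controls have both copies, had intensities of 9429 and 10951 under the Bmp4cKO label on replicates 1 and 2. Under the control label its intensities were 5231 and 5167. Its log2 ratios, 0.85 and 1.08, had the same sign as those of the Bmp4 probe. How the Tbx18 genotype affects this probe was not tested. Every direction below therefore follows the dye labels: a gene called lower here went opposite to the Bmp4 probe, and all directions turn if the dye labels are exchanged. On replicate 2 the Y-linked Ddx3y had an intensity of 65.7 in the RNA labelled Bmp4cKO, against 5638 in the RNA labelled control, although both are labelled male. The 2 probes of Xist, an RNA of female cells, had 3237 and 3757 there in the RNA labelled Bmp4cKO, against 85.6 and 232 in the RNA labelled control. By these genes the 2 RNAs of replicate 2 differ in sex as well as in genotype label, and the 2 cannot be told apart on that array. On replicate 1 Ddx3y was not above background in either channel, as its female labels state. The share of probe spots well above background was 69.3% to 74.6% over the 4 channels, and no spot was saturated.

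Hox genes encode homeodomain transcription factors that give cells their position along the body axis. Within a cluster, genes of low paralogue number lie at the 3′ end and are expressed toward the head, and genes of high number lie at the 5′ end and are expressed toward the tail. Evx1 and Evx2, homologues of the fly gene even-skipped, sit beyond the 5′ ends of the Hoxa and Hoxd clusters. In the mouse urogenital tract the paralogues of number 11 act in the metanephric mesenchyme that makes the kidney, and Hoxa13 and Hoxd13 act in the hindgut, the genital tubercle and the lower urinary tract.

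Evx1, Hoxd12 and Hoxd11 fell in the RNA labelled Bmp4cKO, and no Hox or Evx gene was called higher. Hoxd12 was 3.39-fold and Hoxd11 1.80-fold lower, and Evx1 was 4.56-fold lower with 1 of its 2 low values not well above background. Their RefSeq promoters are shown in mouse build GRCm38.p6, from 250 bases before to 50 bases after the annotated start, because these are the members called over all genes. The Evx1 promoter lies at chr6:52313248-52313547, those of the 2 Hoxd11 starts at chr2:74679308-74679607 and chr2:74682073-74682372, and that of Hoxd12 at chr2:74674763-74675062, all on the plus strand. Capitals mark matches, on either strand, to 4 motifs searched as plain letters: CAATAAA, a sequence favoured by posterior HOX and CDX proteins; TAATTA, the homeodomain core; AGGTCA, the hexamer bound by retinoic acid receptors; and GGCGCC, a site of BMP-activated SMAD proteins. None of these motifs contains another.
Evx1 promoter: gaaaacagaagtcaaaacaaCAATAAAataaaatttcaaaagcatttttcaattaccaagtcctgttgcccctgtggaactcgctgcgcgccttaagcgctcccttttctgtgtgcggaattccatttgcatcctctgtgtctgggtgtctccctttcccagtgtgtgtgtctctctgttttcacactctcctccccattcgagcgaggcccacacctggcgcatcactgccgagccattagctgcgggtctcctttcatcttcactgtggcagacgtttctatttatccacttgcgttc
Hoxd11 promoter, start nearer Hoxd12: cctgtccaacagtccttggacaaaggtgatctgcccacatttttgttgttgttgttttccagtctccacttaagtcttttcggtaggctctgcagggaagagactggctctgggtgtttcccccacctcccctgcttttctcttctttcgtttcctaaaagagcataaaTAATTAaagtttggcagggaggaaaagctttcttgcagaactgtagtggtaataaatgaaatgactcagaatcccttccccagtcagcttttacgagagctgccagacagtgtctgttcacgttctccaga
Hoxd11 promoter, start nearer Hoxd10: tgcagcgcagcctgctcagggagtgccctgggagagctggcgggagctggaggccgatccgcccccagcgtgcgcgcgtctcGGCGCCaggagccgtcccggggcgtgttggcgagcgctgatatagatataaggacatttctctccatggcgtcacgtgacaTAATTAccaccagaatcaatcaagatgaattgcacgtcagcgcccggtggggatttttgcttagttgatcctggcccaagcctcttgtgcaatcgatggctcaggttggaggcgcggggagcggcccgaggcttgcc
Hoxd12 promoter: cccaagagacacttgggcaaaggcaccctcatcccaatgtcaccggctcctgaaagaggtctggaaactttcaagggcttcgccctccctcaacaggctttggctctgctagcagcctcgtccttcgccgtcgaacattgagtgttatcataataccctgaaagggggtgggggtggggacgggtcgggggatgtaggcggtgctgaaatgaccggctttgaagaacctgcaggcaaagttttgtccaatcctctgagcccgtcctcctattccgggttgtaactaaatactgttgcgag

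The Evx1 promoter held CAATAAA, both Hoxd11 promoters held TAATTA, 1 of them also held GGCGCC, and the Hoxd12 window held none of the 4. Among the members, 24 genes had a promoter in the RefSeq table, with 26 starts. CAATAAA stood in 4 of the 26 member promoters (15.4%; those of Evx1, Evx2, Hoxb8 and Hoxd4), against 4.60% of all 32851 promoters of this length. TAATTA stood in 2 of 26 (7.69%) against 5.29% of all, AGGTCA in 7 of 26 (26.9%) against 16.3%, and GGCGCC in 5 of 26 (19.2%) against 11.9%. A match is a description of these letters, and was not tested as a binding site.

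Evx1 stood furthest from 0 among the members. In mouse build mm9 its probe lies at chr6:52268298-52268357. Its normalised intensity was 155 and 118 in the RNA labelled Bmp4cKO, against 541 and 700 in the RNA labelled control, on replicates 1 and 2. Both values of the RNA labelled Bmp4cKO were below both control values, and only 1 of those 2 low values was well above background. The log2 ratio was -1.80 and -2.57, averaging -2.19 ± 0.55 (SD, n = 2 arrays; limma adjusted p = 0.0232). The size depended on the background correction: the mean log2 ratio was -2.88 with plain subtraction and -3.35 in the processed signals of the scanner software. Evx2, the corresponding gene beside the Hoxd cluster, was not above background in any channel, with intensities of 88.0 and 90.8 in the RNA labelled Bmp4cKO, against 85.5 and 91.6 in the RNA labelled control, so it was not tested.

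In the Hoxd cluster the genes of high paralogue number stood apart from the rest. Hoxd12, a gene of the developing digits and external genitalia, is measured at chr2:74515664-74515723 (mm9). It had an intensity of 2055 and 2137 in the RNA labelled Bmp4cKO, against 6508 and 7741 in the RNA labelled control. The groups did not overlap, the log2 ratios of -1.66 and -1.86 lay close together, averaging -1.76 ± 0.14 (SD, n = 2 arrays; limma adjusted p = 0.0187).

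Hoxd11, which acts with Hoxa11 and Hoxc11 in kidney formation, is measured at chr2:74522136-74522195. Its intensity was 8473 and 10039 in the RNA labelled Bmp4cKO, against 15315 and 17969 in the RNA labelled control. The log2 ratios of -0.85 and -0.84 were almost the same on both arrays, averaging -0.85 ± 0.0099 (SD, n = 2 arrays; limma adjusted p = 0.0421). A dimmer Hoxd11 probe, at chr2:74525014-74525073, also had lower values in the RNA labelled Bmp4cKO, 5930 and 5227, against 9818 and 13199 in the RNA labelled control. With the 2 Hoxd11 probes averaged, the limma adjusted p was 0.0517, so this call depends on the probe chosen.

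Hoxd13 and Hoxd10, the neighbours of these genes on either side, did not pass the threshold of 0.05. Hoxd13, at chr2:74509248-74509307, had an intensity of 789 and 617 in the RNA labelled Bmp4cKO, against 1494 and 1781 in the RNA labelled control. Its mean log2 ratio was -1.23 ± 0.43 (SD, n = 2 arrays; limma adjusted p = 0.0505), a larger difference than that of Hoxd11 with a wider spread. Hoxd10, a gene of hindlimb motor neurons and limb skeleton at chr2:74532280-74532339, had an intensity of 14098 and 13042 in the RNA labelled Bmp4cKO, against 23068 and 27048 in the RNA labelled control. Its mean log2 ratio was -0.88 ± 0.24 (SD, n = 2 arrays; limma adjusted p = 0.0571). For both genes the groups did not overlap.

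Hoxa13, the paralogue of Hoxd13 and the Hox gene nearest Evx1, had similar values. Its probe at chr6:52208980-52209039 had an intensity of 1883 and 1426 in the RNA labelled Bmp4cKO, against 3159 and 3205 in the RNA labelled control. Its mean log2 ratio was -0.96 ± 0.30 (SD, n = 2 arrays; limma adjusted p = 0.0561), and it was not called. The dimmer Hoxa13 probe had 1025 and 890 in the RNA labelled Bmp4cKO, against 1643 and 1773 in the RNA labelled control. All 4 values of the RNA labelled Bmp4cKO, over both probes, were below the matching control values on the same probe.

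**Figure D1:**
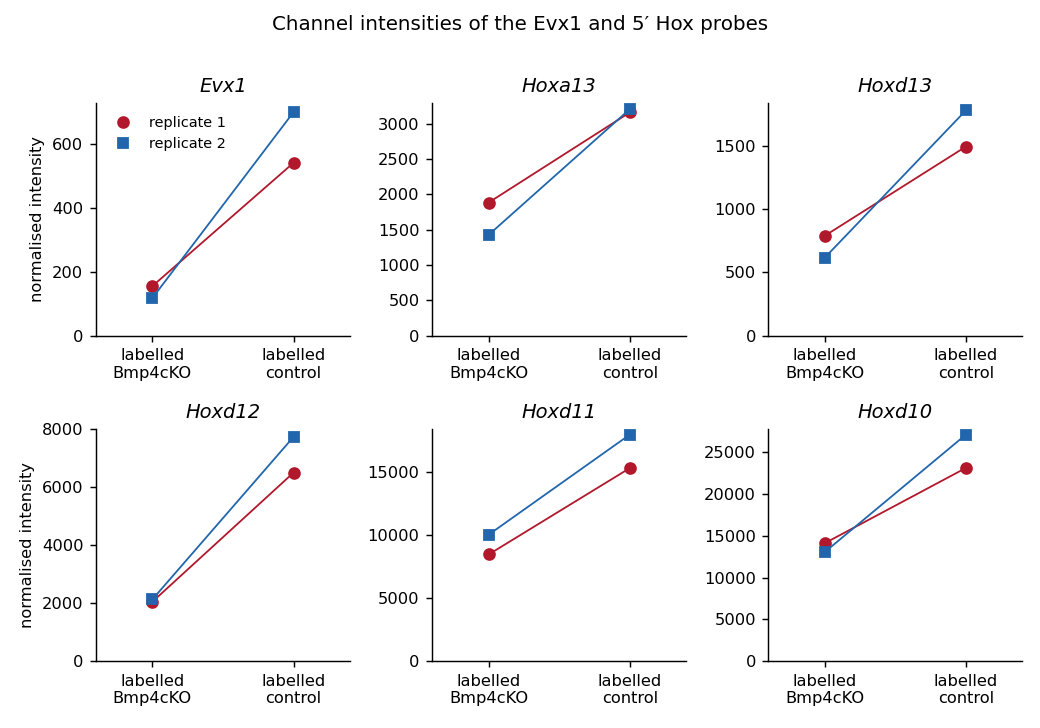
Normalised intensity (linear axis from 0, arbitrary scanner units) of the brightest probe of Evx1, Hoxa13, Hoxd13, Hoxd12, Hoxd11 and Hoxd10 in each channel, the RNA labelled Bmp4cKO on the left and the RNA labelled control on the right of each panel. A line joins the 2 channels of an array, and each line is higher at its control end, as for Hoxd12 with 2055 and 2137 against 6508 and 7741. Heights are not comparable between panels.

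The other members of the Hoxd cluster lay near 0. Hoxd9, next to Hoxd10, had log2 ratios of -0.45 and 0.062 on replicates 1 and 2, and Hoxd8 had 0.010 and -0.044. Hoxd4 and Hoxd3, genes of the neck vertebrae, had -0.044 and -0.36, and -0.16 and -0.28. Hoxd1 had 0.26 and -0.14. On each array the values of Hoxd10 to Hoxd13 were below every value of Hoxd1 to Hoxd9. The median log2 ratio was -1.05 for these 4 genes and -0.19 for the 5 tested genes from Hoxd1 to Hoxd9. On the single arrays these medians were -0.89 and -1.29 for the 4 genes, and -0.044 and -0.14 for the 5. Hoxd10 to Hoxd13 were set apart after their values were seen, so these medians are a description with no test.

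In the Hoxa cluster, away from Hoxa13, no gene was called. Hoxa11, which acts in kidney formation, had log2 ratios of 0.079 and 0.033, with intensities of 9965 and 11561 in the RNA labelled Bmp4cKO, against 9435 and 11300 in the RNA labelled control. Its groups overlapped, unlike those of its paralogue Hoxd11. Hoxa10, a gene of the uterus and lumbar skeleton, had -0.15 and -0.071, and Hoxa9, known from blood progenitors, had -0.13 and -0.29. Of the lower paralogue numbers, Hoxa4 had -0.52 and -0.46 (limma adjusted p = 0.136) and Hoxa6, with the widest spread, -0.10 and -0.75. Hoxa5 lay at -0.14 and -0.50, Hoxa3 at -0.11 and -0.36, Hoxa7 at -0.27 and -0.10, and Hoxa2 at -0.038 and -0.18. Of the 11 Hoxa genes tested, 9 were lower on both arrays, against 30.6% of all genes, and 0 were called, against 1.91% of all genes.

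In the Hoxb cluster the values lay on both sides of 0. Hoxb9, a gene of the thoracic ribs, had the highest mean there, 0.31, from log2 ratios of 0.23 and 0.40. It had intensities of 4167 and 5262 in the RNA labelled Bmp4cKO, against 3556 and 3991 in the RNA labelled control, and was not called (limma adjusted p = 0.341). The lowest was Hoxb6 at -0.37 and -0.093, followed by Hoxb5 at -0.23 and -0.14. Hoxb2, Hoxb3, Hoxb4, Hoxb7 and Hoxb8 had means between -0.014 and 0.10. The 2 Hoxb3 probes differed: the brighter had log2 ratios of -0.059 and 0.087 and the dimmer -0.32 and -0.10. Hoxb1, a gene of the hindbrain, and Hoxb13, known from the prostate, were not above background in any channel.

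In the Hoxc cluster no gene reached a mean log2 ratio beyond that of Hoxc4, -0.30, from -0.26 and -0.34, whose adjusted p was 0.337 in limma. Hoxc10, a gene of the lumbar spinal cord and hindlimb, had -0.18 and -0.14. Hoxc5, Hoxc6, Hoxc8, Hoxc9 and Hoxc11 had means between -0.049 and 0.0045. Hoxc11, the remaining paralogue of Hoxa11 and Hoxd11, had log2 ratios of -0.11 and 0.041, with intensities of 247 and 286 in the RNA labelled Bmp4cKO, against 267 and 278 in the RNA labelled control. Hoxc12 was well above background in 1 of the 4 channels, an RNA labelled Bmp4cKO, and Hoxc13, known from hair follicles, in none.

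**Figure D2:**
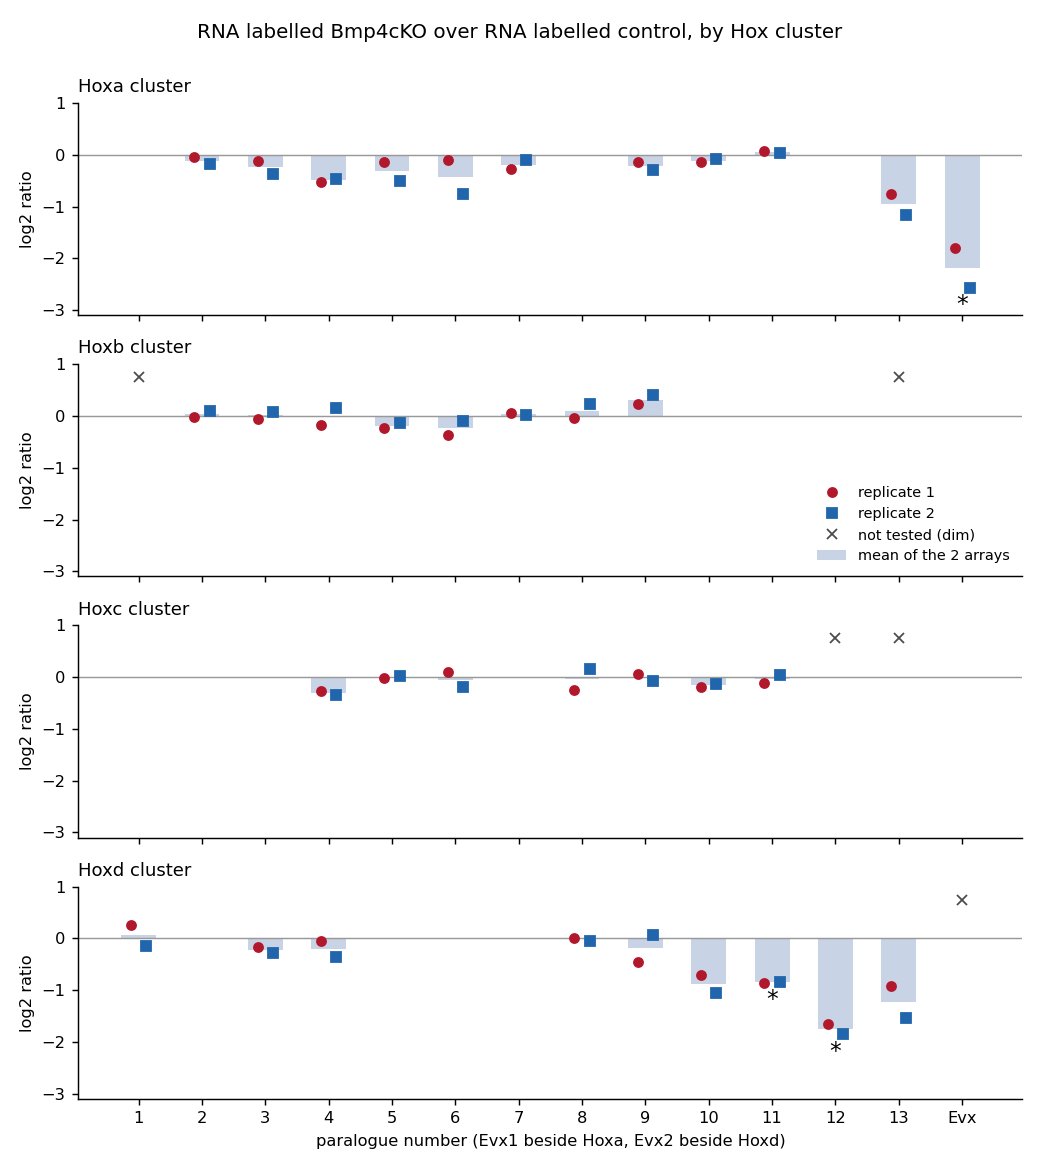
Log2 ratio of Bmp4cKO-labelled over control-labelled RNA for Hox and Evx genes by paralogue number, 1 panel a cluster, with Evx1 drawn beside Hoxa and Evx2 beside Hoxd. Bars are the mean of the 2 arrays, circles and squares the single arrays, stars the members called lower (Evx1 at -2.19, Hoxd12 at -1.76, Hoxd11 at -0.85) and crosses members too dim to test, placed at a fixed height. Apart from these and Hoxd13, Hoxa13 and Hoxd10, the bars lie between -0.49 for Hoxa4 and 0.31 for Hoxb9.

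Counted over the 36 tested members, 3 were called lower (8.33%), against 1.02% of all genes tested. None was called higher in limma, against 0.887% of all genes; at an unadjusted p under 0.05, 8 members were lower and 1, Hoxb9, was higher, against 7.37% and 7.15% of all genes. Evx1 and Hoxd12 were at least 2-fold lower on both arrays, 2 of 36, against 0.619% of all genes, and no member was at least 2-fold higher on both, against 0.578% of all genes. On both arrays 20 members were lower (55.6%), against 30.6% of all genes, and 4 were higher (11.1%), against 28.2% of all genes. In 18 members both values of the RNA labelled Bmp4cKO were below both control values, against 19.6% of all genes, and in 2, Hoxb9 among them, both were above, against 18.8% of all genes. The median log2 ratio was -0.17 over the members (-0.14 on each array) and -0.0092 over all genes tested. Of the 36, 34 were well above background in all 4 channels, and Evx1 and Hoxc5 were so in 3. Both of these passed the filter through the RNAs labelled control only. Where all 4 channels had to be well above background, 2 of 34 members were called lower, against 197 of 20894 genes. At least 2-fold lower on both arrays was then 1 member. With median centring in place of loess, 0 members and 0 of all genes were called. Neighbouring members share clusters, and all share the same 4 RNAs, so they are not independent of each other.

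Read along the body axis, the lowest values lay at the 5′ ends of the Hoxd and Hoxa clusters. Paralogues 1 to 4 had a median log2 ratio of -0.11 (11 genes), paralogues 5 to 8 of -0.049 (11 genes) and paralogues 9 to 13 of -0.19 (13 genes). On replicates 1 and 2 these medians were -0.059 and -0.18, -0.10 and -0.093, and -0.18 and -0.14. Split by cluster, paralogues 9 to 13 had a median of -0.88 in Hoxd (5 genes), -0.16 in Hoxa (4 genes) and -0.036 in Hoxc (3 genes), and Hoxb9 alone had 0.31. Spearman's rho of the log2 ratio with paralogue number was -0.82 over the 9 tested Hoxd genes (-0.92 and -0.70 on the single arrays). It was -0.17 over the 11 Hoxa genes (-0.45 and -0.15), 0.52 over the 8 Hoxb genes (0.36 and 0.33) and 0.18 over the 7 Hoxc genes (0.14 and 0.46), and each of these 3 moved by over 1.5 times when 1 of the arrays was left out. These are descriptions across genes on shared arrays and carry no p. Leaving out Hoxa13 and Hoxd10 to Hoxd13, the other 30 Hox genes had a median of -0.079.

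**Figure D3:**
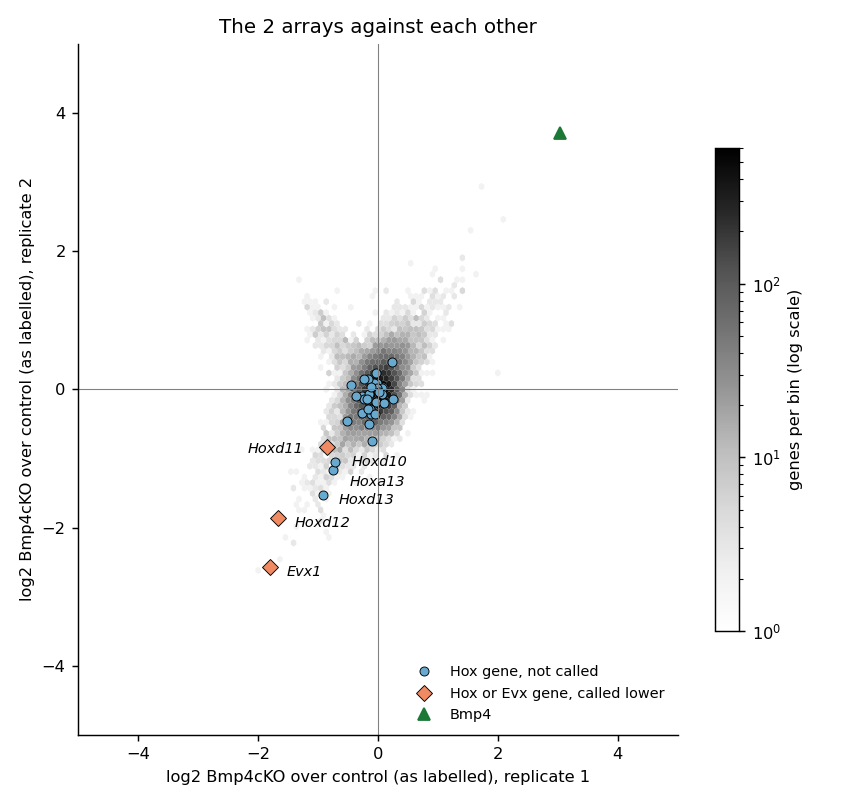
Log2 ratio of Bmp4cKO-labelled over control-labelled RNA on replicate 1 (horizontal) and replicate 2 (vertical); grey shading counts all genes tested per bin on a log scale, circles are Hox genes not called, diamonds the called members and the triangle Bmp4. Evx1 (-1.80 and -2.57) and Hoxd12 (-1.66 and -1.86) lie at the lower left edge, opposite to Bmp4 at 3.04 and 3.71.

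The position of these genes was then set beside that of their neighbours on the chromosome. The Evx1 probe lies 59.3 kb from the brighter Hoxa13 probe, beyond the 5′ end of the Hoxa cluster. Of the transcripts between them, Evx1os, the antisense RNA of Evx1, had log2 ratios of -0.35 and -0.28. An unnamed transcript, ENSMUST00000068976, at chr6:52216191-52216250 and 7.21 kb from Hoxa13, had intensities of 99.1 and 73.5 in the RNA labelled Bmp4cKO, against 183 and 197 in the RNA labelled control. It was not well above background in either RNA labelled Bmp4cKO, so it was at least 1.55-fold lower there, counted from the dimmest detected signals. Tested as a probe it was not called (limma adjusted p = 0.0501). On the other side, 9530018H14Rik, 2.74 kb from Hoxa13 toward Hoxa11, had -0.45 and -1.04.

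Further toward Hoxa11, Hoxa11os, the antisense RNA of Hoxa11, had log2 ratios of -0.10 and -0.49. Hoxa11 itself lay near 0 on both arrays, with 0.079 and 0.033. Over the 4 clusters the arrays held 19 probes of other transcripts, of which 16 passed the filter. Of these, 8 were lower on both arrays, 3 were higher on both and 0 were called lower, against 30.6%, 28.2% and 1.02% of all genes tested. Within the Hoxa cluster, ENSMUST00000071583, 59.8 kb from Hoxa13, had -0.21 and -1.25. Hoxaas3, 48.4 kb from Hoxa13, had 0.12 and -0.88. Outside the Hoxd cluster, Lnpk, which lies beyond Evx2, had -0.13 and 0.20, and Mtx2, beyond Hoxd1, had 0.033 and -0.14. Of the 20 genes that flank the 4 clusters, all were tested and 0 were called in either direction, against 1.91% of all genes, with a median of -0.017. The lowest were Skap1 at -0.68 and Nfe2l1 at -0.23, both on the Hoxb chromosome, 11.

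**Figure D4:**
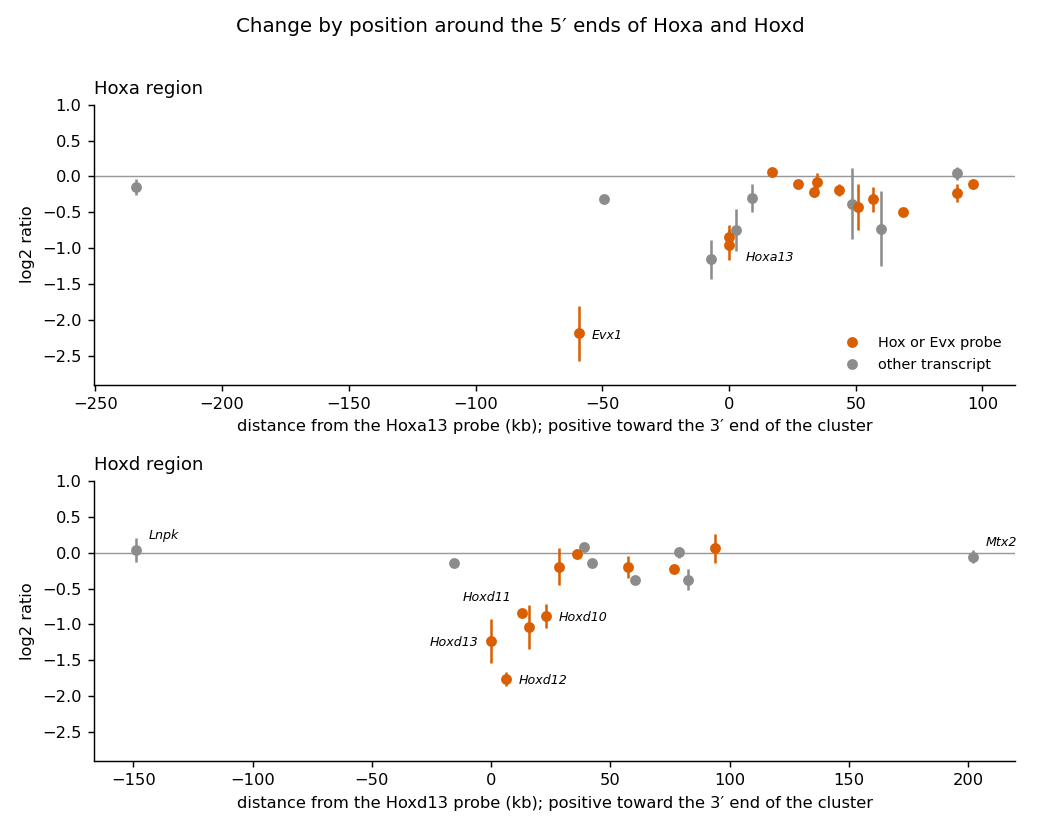
Log2 ratio of Bmp4cKO-labelled over control-labelled RNA against distance in kb from the Hoxa13 probe (top) and the Hoxd13 probe (bottom), positive toward the 3′ end of the cluster. Points are the mean of the 2 arrays and lines join the single arrays; orange marks Hox and Evx probes and grey other transcripts. Low values lie from Hoxd13 to Hoxd10, within 23 kb, at Hoxa13 and at Evx1, while Lnpk and Mtx2 lie near 0. Some other transcripts are also low, such as ENSMUST00000071583 inside the Hoxa cluster, 59.8 kb from Hoxa13, with -0.21 and -1.25.

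Genes known to act on or with Hox genes were described from lists chosen with earlier results known. Over all genes tested, 1.91% were called in either direction, so a count of 0 in lists this short is not read as a result. Of the 9 TALE homeodomain cofactors that bind DNA with HOX proteins, 0 were called, with a median of -0.075; Meis2 had -0.39. Of the 18 Polycomb and Trithorax genes, which keep Hox genes silent or active, 0 were called, with a median of -0.021; Kdm6b had -0.60 and -0.28 and Ring1 0.0012 and 0.86 on the 2 arrays. Cdx1 and Gdf11, activators of posterior Hox genes in the trunk, had -0.019 and -0.056, while Cdx2 and Cdx4 were too dim to test. Of 7 tested homeobox genes of other families, 0 were called, and the largest values were those of Gsx1 (0.71) and Dlx2 (0.62).

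Retinoic acid, made by ALDH1A enzymes and broken down by CYP26 enzymes, is a known regulator of Hox genes. Of 8 tested genes of its receptors and enzymes, 4 were called lower and 0 higher, against 1.02% and 0.887% of all genes. Aldh1a3 had a mean log2 ratio of -2.07 ± 0.68, Aldh1a2 of -1.83 ± 0.46, Aldh1a1 of -1.47 ± 0.48 and Cyp26b1 of -0.87 ± 0.11 (SD, n = 2 arrays). The receptors Rara, Rarb and Rarg had -0.082, -0.10 and 0.015. The remaining enzyme gene tested was not called and is not reported here. The values given therefore do not show that the whole list was lower or near 0. Among 4 partners and targets of the paralogues of number 11 in kidney mesenchyme, Gdnf, the ligand of the receptor RET, fell, averaging -2.15 ± 0.17 (SD, n = 2 arrays; limma adjusted p = 0.0162). Its regulators Eya1 and Pax2 had -0.30 and -0.14, and Six2 had 1.21 and -0.99 on the 2 arrays.

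The tissue label was set against marker lists, because fewer cells of a type and less RNA per cell cannot be told apart in a whole ureter. Over all genes tested, 0.887% were called higher and 1.02% lower. Markers of the ureter were present: 5 of 8 urothelial genes rose, with summed intensities of 40652 and 52411 in the RNA labelled Bmp4cKO, against 12377 and 10705 in the RNA labelled control. Of 6 smooth muscle genes 3 rose, with sums of 81153 and 103908 against 49132 and 38308 in the RNA labelled control. Of 7 genes of ureteric mesenchyme 3 rose, among them Bmp4 and Tbx18, with sums of 185222 and 179242 against 83914 and 90886 in the RNA labelled control. Bmp4 alone gave 75598 and 61938 of these sums, against 9191 and 4719 in the RNA labelled control. Of the genes not called, Sox9 had 0.63 and -0.13 on the 2 arrays. Tbx3, Tshz3 and Tbx2 had means of 0.14, -0.081 and -0.18. The called genes and the sums of these lists went opposite to Evx1 and the high-numbered Hoxd genes.

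Genes listed as markers of neighbouring tissues were also detected, and several went the same way as Evx1 and Hoxd12. Whether the ureter itself also expresses them was not examined. Over all genes tested, 1.02% were called lower and 0.887% higher. Of 8 neuron markers 4 fell, Isl1 and Tubb3 furthest with -1.55 and -1.52, and the list summed to 12204 and 9921 in the RNA labelled Bmp4cKO against 18995 and 18452 in the RNA labelled control. Of 8 tested kidney markers 3 fell, namely Wnt9b (-1.97), Wt1 (-1.34) and Ret (-1.20). Cited1 was higher on both arrays (0.65 and 0.37) without passing the test, and Six2 had 1.21 and -0.99. Wnt11, Foxd1 and Slc34a1 had means of -0.34, -0.095 and -0.039. The kidney list summed to 48041 and 53635 in the RNA labelled Bmp4cKO against 55190 and 69250 in the RNA labelled control. Nphs1 and Umod, of mature nephrons, were not above background. Of 7 tested markers of gonad and genital duct, Lhx1 fell (-1.06), Lhx9 had 0.61 without passing the test, the sums were 3218 and 2920 against 4351 and 4613 in the RNA labelled control, and Amh was not above background. Among 5 tested markers of hindlimb and body wall, Myog fell (-0.89). Tbx4 was higher on both arrays (0.49 and 0.52) without passing the test, and Pitx1 had 0.64 and -0.69. Myod1 and Pax7 had means of -0.16 and -0.056. This list summed to 1573 and 1421 in the RNA labelled Bmp4cKO against 1807 and 1923 in the RNA labelled control. Among 5 tested markers of hindgut and cloaca, Foxa1, which urothelium also expresses, rose (1.20) and Shh had -0.71 without passing the test, with sums of 19374 and 27308 against 10627 and 11196 in the RNA labelled control, and Cdx2 and Vil1 were not above background. The part of these cell types in the values of Evx1 and the Hox genes was not tested.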

How the data were processed

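Per the file headers, the authors' spot values come from Agilent Feature Extraction 10.7.3.1 and the probes are placed on mm9. The deposited spot and background intensities are unnormalized, and the deposited processed signals are intensities after the software's own correction. As deposited, the log ratio of red over green is on the log10 scale. In the authors' value table each probe has a score, with a column median of 1 on both arrays. Set against the scanner's log ratio, the score proved to be a signed fold change. It lay within 0.01 (log2) for 99.4% of the probes well above background in both channels, and dimmer probes were not counted. By the dye labels the score runs control over Bmp4cKO, and the files do not state its direction.

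Background was corrected with normexp (offset 50), ratios were normalized by loess within each array with control spots at weight 0, and intensities were scaled between arrays by their average (limma 3.58.1, R 4.3.3). Outlier spots were left out, 3 of them on member probes, and spots of a probe were averaged. A gene needed a probe well above background in both RNAs labelled Bmp4cKO, or in both RNAs labelled control, and its brightest passing probe stood for it. Names were updated for 31001 probes from a GRCm38.p6 table, used for names and promoters only; 8428 kept the array's name. The 2 log2 ratios of a gene were fitted with limma's lmFit and eBayes, so that the array pairs the RNAs as hybridised, and adjusted by Benjamini-Hochberg over 21978 genes. Each gene has 1 residual and 4.03 prior degrees of freedom, so the shared prior carries most of each test. The smallest fold called was 1.75. The number of arrays limits the precision.

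The members and all lists were chosen with earlier results of these data known. Channel values were planned for members called, members 2-fold on both arrays, Evx1 and Evx2; of the other lists, up to 4 called members or else the 2 with the largest change are named, with some further members for context, while a few genes are not reported here. Channel values of other members, the set of Hoxd10 to Hoxd13 and the neighbouring transcripts were chosen after values were seen.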

Additional observations from a re-analysis of the deposited data

Results flagged for a closer look

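For 12 members the 2 arrays went opposite ways, so that the RNA labelled Bmp4cKO was above the RNA labelled control on one array and below it on the other. Each array holds 1 RNA a group, and the difference between arrays was not tested. As replicate 2 minus replicate 1 on the log2 scale, Hoxd9 differed by 0.512, Hoxc8 by 0.394, Hoxb4 by 0.322, Hoxb8 by 0.28, Hoxc11 by 0.154, Hoxb3 by 0.146, Hoxb2 by 0.113 and Hoxc5 by 0.0324. In the other direction, Hoxd1 had -0.396, Hoxc6 -0.289, Hoxc9 -0.14 and Hoxd8 -0.0542. None of Evx1, Hoxa13 and Hoxd10 to Hoxd13 was among them.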

How the results depend on the processing

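Of the members, 3 were called lower; this was 6 with plain background subtraction, without the filter on dim probes, with a robust prior, with a prior that follows brightness, and at an adjusted p under 0.06 (chosen after seeing the data). It was 5 from the authors' value table and 0 with median centring in place of loess or with no normalization. With these last 2 settings, 0 and 1 of all genes were called lower and 0 higher, with 1760 and 108 genes at an unadjusted p under 0.05. For Evx1 and Hoxd12 the loss of the call was in these 2 settings only, with an adjusted p of 0.296 under median centring, while the log2 ratios stayed at -2.20 and -1.74 there and at -2.23 and -1.76 with no normalization. Hoxd11 was also lost with probes averaged. The fit of separate channels, with no replicate block, likewise called 3 members lower, with Hoxd13 in place of Hoxd11 (adjusted p 0.039 and 0.073); the pairing is by array, as hybridised. The count of members 2-fold lower on both arrays was 1 where all 4 channels had to be above background, which left out Evx1, and it ranged from 2 to 5 without a replicate (5 without replicate 1).

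The median log2 ratio of the members was -0.171, against -0.176 with plain subtraction, -0.170 with no background correction, -0.143 with median centring, -0.164 with no normalization, -0.162 with processed signals or the authors' value table, -0.110 with no filter and -0.153 with probes averaged, and it was -0.138 without either replicate. Values near 0 changed sign. Hoxc5 was -0.028 with no background correction, -0.020 with no normalization, and -0.069 with processed signals or the authors' table; Hoxb4 was 0.0049 with median centring and 0.0015 with processed signals or the authors' table. Likewise Hoxc9 was 0.016 and Hoxd8 0.027 with median centring, Hoxd8 0.0054 with no normalization, Hoxb2 -0.017 and Hoxb3 -0.0032 with processed signals or the authors' table, and Hoxb3 -0.098 with probes averaged. Leaving out replicate 1 or replicate 2, in that order, turned the sign in 12 genes: Hoxb2 0.094 and -0.019, Hoxb3 0.087 and -0.059, Hoxb4 0.15 and -0.17, Hoxb8 0.24 and -0.038, Hoxc5 0.021 and -0.012, Hoxc6 -0.19 and 0.096, Hoxc8 0.15 and -0.24, Hoxc9 -0.073 and 0.067, Hoxc11 0.041 and -0.11, Hoxd1 -0.14 and 0.26, Hoxd8 -0.044 and 0.010, and Hoxd9 0.062 and -0.45. The cause of these changes was not tested. With 2 arrays, Evx1 near background, and Evx2, Hoxb1, Hoxb13, Hoxc12 and Hoxc13 below the filter, the data limit what can be said of these genes.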

Other observations

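In the authors' deposited table, where a positive signed fold by the dye labels means control over Bmp4cKO, Evx1 had 6.62 and 13.5, Hoxd12 had 3.27 and 3.92, and Hoxd13 had 2.12 and 3.12 on replicates 1 and 2.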
